A study of Arabidopsis thaliana with 14 samples.

Results

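The tau-class glutathione transferases are a plant-specific branch of the glutathione transferase family, and 8 of their genes are described here across the compartments of the Arabidopsis thaliana seed: GSTU15, GSTU16, GSTU18, GSTU20, GSTU23, GSTU26, GSTU27 and GSTU28. Each was taken from the 1 probe set of the array that the platform's gene table assigns to that gene alone. They are 8 of 13350 genes with a probe set of their own. Of the 28 tau-class symbols GSTU1 to GSTU28, 11 had a probe set naming them alone in that table. The remaining 3, GSTU21, GSTU22 and GSTU25, were too weak to be tested, and the genes with no such probe set were not analysed here.

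Glutathione transferases join the tripeptide glutathione to reactive or foreign molecules, and the conjugates are then carried into the vacuole. Tau-class enzymes are dimers in the cytosol, are known for detoxifying herbicides and for their induction by stress and hormones, and also act as peroxidases or carriers of small molecules. Many of their genes lie in tandem clusters that arose by repeated duplication. A developing seed holds an embryo, an endosperm that feeds it and that differs from the micropylar to the chalazal pole, and a maternal seed coat whose chalazal part receives the vascular supply.

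All samples came from plants of the genotype Ws-0, aged 38 to 46 days, with seeds at the linear-cotyledon stage. Compartments were cut by laser from fixed, paraffin-embedded sections, and 2 to 5 ng of total RNA per sample was amplified and hybridised to an ATH1 array. Each of the 7 groups had 2 biological replicates. The endosperm was cut into a micropylar, a cellularized and a chalazal compartment, the seed coat into a chalazal and a general compartment, and the embryo proper and whole seeds made up the remaining groups. How many plants or seeds were pooled for each sample is not given in the sources used here, nor is it said that replicates came from separate plants, so a p-value here reflects the variation among these arrays alone, which may be technical.

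Values are signal intensities that the authors had scaled on each array to a trimmed mean of 500, with array medians between 107 and 183. Replicate arrays correlated at 0.851 to 0.914, and the chalazal endosperm stood furthest from the other groups, at 0.454 to 0.582. The micropylar arrays carry a description that mentions whole seeds, unlike their titles, and the series text names micropylar endosperm in 2 places and chalazal endosperm in none. The groups were used as titled. Markers of the chalazal endosperm, the micropylar endosperm, the cellularized endosperm and both seed coat parts were each highest in the compartment of that name, as were 3 of 4 embryo markers. That is no independent check, because those lists were drawn up with earlier results of these arrays known. Among 6 general endosperm markers, 4 were highest in an endosperm compartment and 2 in the chalazal seed coat.

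The 8 genes did not share a compartment. GSTU20, GSTU23 and GSTU27 had their highest mean in the embryo proper, GSTU15 and GSTU28 in the chalazal endosperm, GSTU18 in the micropylar endosperm, GSTU16 in the cellularized endosperm and GSTU26 in the general seed coat. None was highest in the chalazal seed coat, where 16.9% of all tested probe sets were highest. In the embryo proper that share was 19.5%, in the chalazal endosperm 23.5% and in the micropylar endosperm 13.9%. It was 11.1% in the cellularized endosperm and 15.1% in the general seed coat. For 6 of the 8, both arrays of the highest compartment lay above all 10 arrays of the other compartments, a pattern that 46.5% of the 15951 tested probe sets showed for some compartment. Expressed as a share of the 6 compartment means added together, the highest compartment held between 39.4% and 90.7% of a gene's signal. The median over the 8 genes was 59.9%, against 33.3% over all tested probe sets. A share of 50% was reached by 6 of the 8 genes (75.0%), against 18.0% of all tested probe sets. The 8 genes were chosen with earlier results of these data known, so these values describe them and not tau-class genes in general. GSTU28, at 49.8%, entered the tests only through the compartment in which it was highest. In these bulk samples, fewer cells of a type and less RNA per cell cannot be told apart.

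**Figure D1:**
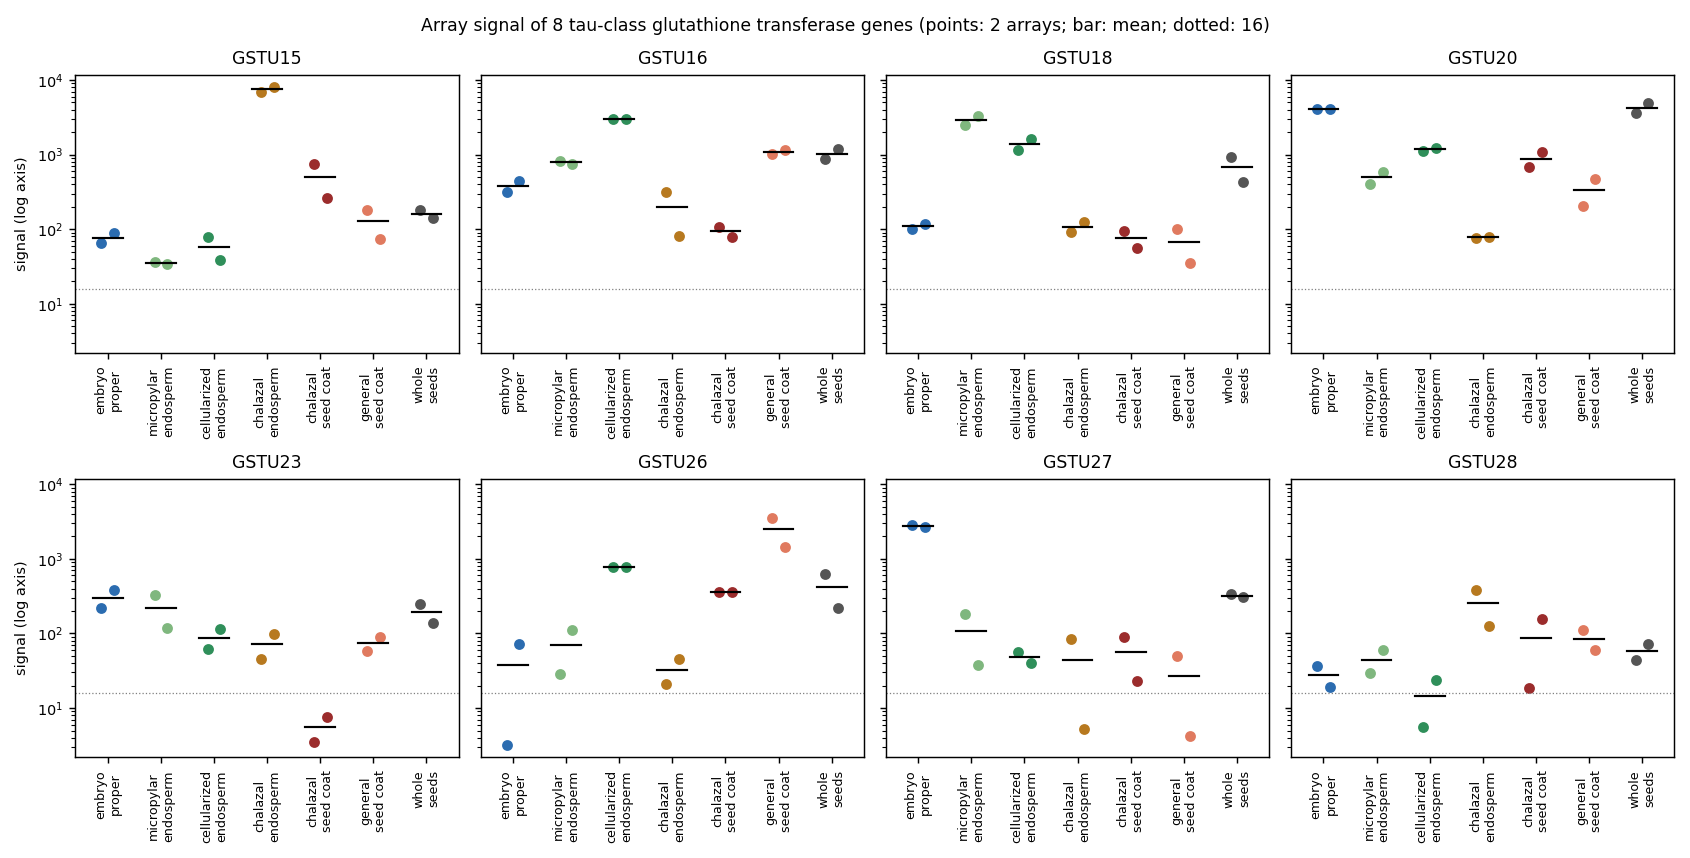
Signal of the 8 genes on each array, on a log axis, for the 6 compartments and whole seeds. Points are the 2 arrays of a group, bars their mean, and the dotted line the 16 signal units added before taking logs. GSTU15 stands at 7007 and 8014 in the chalazal endosperm and at no more than 752 elsewhere, while GSTU27 stands at 2686 or above only in the embryo proper.

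**Figure D2:**
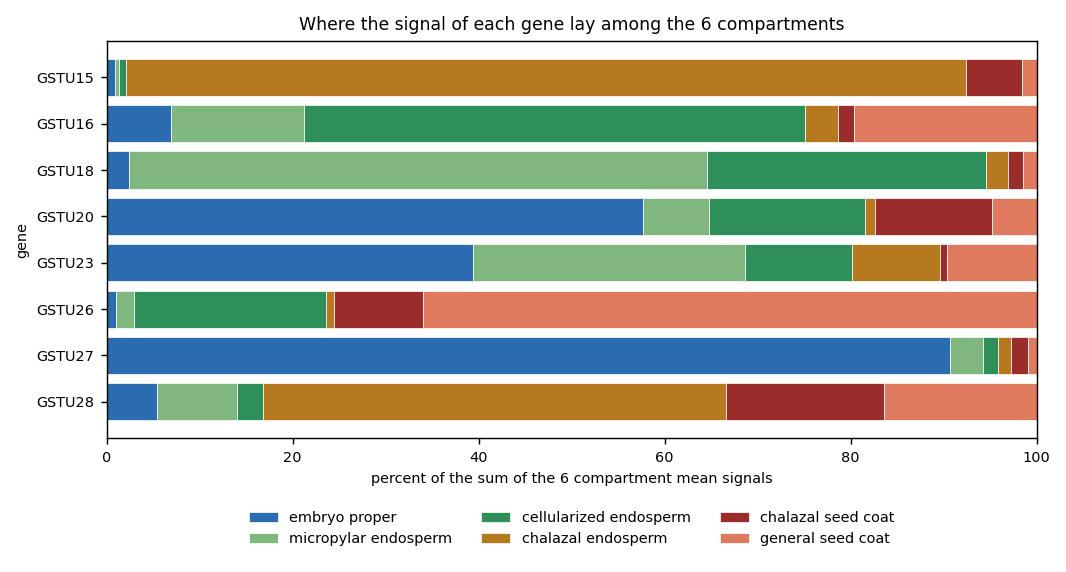
Share of each gene's summed compartment means, in percent, that lay in each of the 6 compartments. The embryo proper holds 90.7% for GSTU27 and the chalazal endosperm 90.3% for GSTU15, while no compartment holds more than 39.4% for GSTU23.

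GSTU27 was the most embryo-bound of the 8. Its signal was 2873 and 2686 in the embryo proper, against 181 and 37.3 in micropylar endosperm, 56.3 and 40.4 in cellularized endosperm, 84.1 and 5.20 in chalazal endosperm, 89.2 and 23.3 in chalazal seed coat, and 50.3 and 4.24 in general seed coat. Whole seeds had 338 and 305. Both embryo arrays were far above every other array, and the embryo mean was 25.5 times the next compartment mean, that of the micropylar endosperm. Tested as log2(signal + 16) with limma, the embryo proper exceeded the mean of the other 5 compartments by 5.57 ± 0.67 (SE, n = 2 arrays against 10), with a Benjamini-Hochberg adjusted p of 8.39e-06. Below the embryo, replicates spread widely: the 5 other compartments could not be placed in an order, with neighbouring levels differing by 0.01 to 0.67 and every 95% interval including 0. The chalazal endosperm (-1.54 ± 0.67, adjusted p = 0.0740) and the general seed coat (-1.94 ± 0.67, adjusted p = 0.0538) fell short of a call. The chalazal endosperm was called lower under 5 of 24 alternative settings and the general seed coat under 8 of 25. Replicate number as a block was among them for both (adjusted p = 0.0368 and 0.0237).

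GSTU20, whose product is known to bind the jasmonate-conjugating enzyme FIN219 (JAR1), was also highest in the embryo proper but was measured more widely. It had signals of 4037 and 4054 in embryo proper, against 1132 and 1228 in cellularized endosperm, 679.7 and 1077 in chalazal seed coat, 403 and 592 in micropylar endosperm, 203 and 475 in general seed coat, and 75.5 and 79.8 in chalazal endosperm. In whole seeds it gave 3606 and 4874. The groups at both ends of this order stood clear of the rest: the embryo arrays were above, and the chalazal endosperm arrays below, all others among the compartments. The embryo proper exceeded the other 5 by 3.21 ± 0.34 (adjusted p = 2.67e-06) and the next compartment, the cellularized endosperm, by 1.76 ± 0.44 (adjusted p = 0.0113). The chalazal endosperm fell short of the other 5 by a log2 change of -3.31 ± 0.34 (adjusted p = 6.69e-07). Among the 4 compartments in between, neighbours did not differ beyond their spread.

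GSTU20 was also called higher in the cellularized endosperm, by 1.09 ± 0.34 (adjusted p = 0.0345), and lower in the general seed coat, by -1.14 ± 0.34 (adjusted p = 0.0271). Its arithmetic mean in the cellularized endosperm, 1180.2, was near that of the other 5 compartments, 1168, which the embryo level dominates, whereas the fit averages logs. The cellularized call ended under 11 of 25 alternative settings. Without the chalazal endosperm arrays its log2 change was 0.45 (adjusted p = 0.404). Leaving out either array of the cellularized endosperm or either embryo array also ended it. So did leaving out replicate 1 of the general seed coat or of the micropylar endosperm. The other settings were 64 signal units added, no variance trend, no micropylar and whole-seed arrays, and a fit of the compartments alone. The general seed coat call ended without its replicate 1 (-0.56) and with no variance trend (-1.14, adjusted p = 0.056).

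GSTU23 was weaker and less restricted. Signals were 219 and 383 in embryo proper, against 329 and 118 in micropylar endosperm, 61.2 and 114 in cellularized endosperm, 45.7 and 98.9 in chalazal endosperm, 57.8 and 89.8 in general seed coat, and 3.46 and 7.56 in chalazal seed coat. Whole seeds had 249 and 139.8. Embryo and micropylar values overlapped, and only 4 of the 14 arrays were at or above their array's median. The clearest feature was the low end, since both chalazal seed coat arrays lay below every other array. The chalazal seed coat was lower than the other 5 by a log2 change of -2.68 ± 0.56 (adjusted p = 0.00142), which ran from -4.27 with 1 signal unit added to -1.47 with 64 added. The embryo proper was called higher by 1.92 ± 0.56 (adjusted p = 0.0143), but the call ended without embryo replicate 1 (2.30, adjusted p = 0.0594) or without embryo replicate 2 (1.54, adjusted p = 0.208).

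The chalazal endosperm, a syncytial region next to the seed's vascular supply, was the site of GSTU15. Its signal was 7007 and 8014 there, against 752 and 262 in chalazal seed coat, 182 and 73.2 in general seed coat, 64.5 and 88.5 in embryo proper, 77.9 and 38.7 in cellularized endosperm, and 36.7 and 34.2 in micropylar endosperm. Whole seeds had 179 and 142. The lower chalazal endosperm array was still far above the highest of the others, and the mean was 14.8 times that of the chalazal seed coat. The difference from the other 5 compartments was 6.02 ± 0.49 (adjusted p = 4.38e-08), the largest among the 48 tests of the 8 genes in 6 compartments, and from the chalazal seed coat alone it was 4.02 ± 0.64 (adjusted p = 0.000133).

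Both chalazal seed coat arrays lay above all arrays of the 4 lower compartments. The excess of the chalazal seed coat over the general seed coat, 1.80 ± 0.64 with a 95% interval of 0.46 to 3.13, did not pass the test (adjusted p = 0.0664). The 4 chalazal endosperm markers UBC31, RR19, RR23 and AGL33 summed to 6984 and 887 on the same arrays, against 999 and 264 in general seed coat and 48532 and 49268 in the chalazal endosperm. Both GSTU15 and those markers were therefore higher on chalazal seed coat replicate 1 than on replicate 2, and 0 of the 4 markers were highest there; their part in the GSTU15 level was not tested. GSTU15 was called lower in the embryo proper (-1.61 ± 0.49, adjusted p = 0.019), the micropylar endosperm (-2.61 ± 0.49, adjusted p = 0.00105) and the cellularized endosperm (-2.03 ± 0.49, adjusted p = 0.00757). The embryo call ended without either embryo array (-1.42, adjusted p = 0.178, and -1.79, adjusted p = 0.0857), and the cellularized call without replicate 2 (-1.64, adjusted p = 0.132). Without the chalazal endosperm arrays the 3 changes became -0.42 (adjusted p = 0.617), -1.46 (adjusted p = 0.0934) and -0.86 (adjusted p = 0.335), and the chalazal seed coat was then called higher, by 2.50 (adjusted p = 0.00269), as it also was without its own replicate 2 (1.93, adjusted p = 0.0391).

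GSTU28 also had its highest mean in the chalazal endosperm but was weakly measured, with only 3 of 14 arrays at or above the array median. It gave 388 and 127 in chalazal endosperm, against 18.8 and 156 in chalazal seed coat, 110.4 and 59.9 in general seed coat, 29.3 and 59.6 in micropylar endosperm, 36.6 and 19.2 in embryo proper, and 5.50 and 23.7 in cellularized endosperm. Whole seeds had 44.0 and 72.3. The chalazal endosperm overlapped the chalazal seed coat, whose second array exceeded the lower chalazal endosperm array. Of those 3 arrays, 2 were of the chalazal endosperm and 1 of the chalazal seed coat, so GSTU28 entered the tests only through the compartment in which it was highest, and its change there is a description more than a test. That change was 2.10 ± 0.67 against the other 5 (adjusted p = 0.0177, or 0.0211 with no filter on low values), and it missed the threshold without replicate 1 (1.35, adjusted p = 0.304). No neighbouring pair in the order of levels differed beyond its spread.

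GSTU18 was highest in the micropylar and cellularized endosperm. Its signal was 2492 and 3244 in micropylar endosperm, against 1158 and 1614 in cellularized endosperm, 102 and 117 in embryo proper, 91.6 and 125 in chalazal endosperm, 94.9 and 56.1 in chalazal seed coat, and 102 and 34.9 in general seed coat. Whole seeds had 917 and 434. Among the compartments, the values fell into a high and a low set with no array in between, and the chalazal endosperm belonged to the low set. Against the other 5 compartments the micropylar endosperm was higher by 4.06 ± 0.45 (adjusted p = 6.05e-06) and the cellularized endosperm by 2.80 ± 0.45 (adjusted p = 0.000256).

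Micropylar and cellularized endosperm did not differ for GSTU18 beyond their spread, at 1.05 ± 0.58 with a 95% interval of -0.16 to 2.26 (adjusted p = 0.325). Markers of the cellularized endosperm, SWEET11 and GH9C1, summed to 12180.2 and 13883 on the micropylar arrays, against 32407 and 39468 on the cellularized arrays; their part in the GSTU18 level was not tested. The cellularized endosperm exceeded the embryo proper, next in order, by 3.46 ± 0.58 (adjusted p = 0.000492). GSTU18 was called lower in each of the 4 remaining compartments, by -1.35 to -2.19. All 4 of those calls ended when the micropylar and whole-seed arrays were left out, with log2 changes of -0.56 in embryo proper, -0.60 in chalazal endosperm, -1.17 in chalazal seed coat and -1.43 in general seed coat. Single arrays also ended them: either embryo array or micropylar replicate 2 for the embryo proper, either of its own arrays for the chalazal endosperm, and replicate 2 of the compartment for each part of the seed coat.

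GSTU16 shared the cellularized endosperm with GSTU18 but was also measured in the general seed coat. It had 2965 and 2999 in cellularized endosperm, against 1015 and 1163 in general seed coat, 829 and 757 in micropylar endosperm, 319 and 444 in embryo proper, 316 and 81.5 in chalazal endosperm, and 108 and 79.4 in chalazal seed coat. In whole seeds the signal was 866 and 1175. Both cellularized endosperm arrays were above all the others, and both chalazal compartments were at the low end. The cellularized endosperm exceeded the other 5 by 3.02 ± 0.40 (adjusted p = 4.29e-05), and the chalazal seed coat was lower by -2.72 ± 0.40 (adjusted p = 5.58e-05). The chalazal endosperm was lower by -1.85 ± 0.40 (adjusted p = 0.00128), a call that ended without its replicate 2 (-0.96, adjusted p = 0.112).

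No step between neighbours in the GSTU16 order passed the test. The largest, from the cellularized endosperm over the general seed coat, was 1.44 ± 0.52 (95% interval 0.35 to 2.53, adjusted p = 0.0597). The general seed coat was called higher than the other 5 by 1.29 ± 0.40 (adjusted p = 0.0322), and this call ended under 7 of 25 alternative settings, among them leaving out either general seed coat array, embryo replicate 1 or micropylar replicate 2.

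GSTU26, whose product is known for activity towards chloroacetanilide herbicides, was the one gene of the 8 that was highest in the seed coat. It had 3500.1 and 1461 in general seed coat, against 771 and 788 in cellularized endosperm, 356 and 365 in chalazal seed coat, 28.7 and 113 in micropylar endosperm, 20.9 and 44.9 in chalazal endosperm, and 3.22 and 72.2 in embryo proper. Whole seeds had 620.0 and 218. The general seed coat arrays lay above all others, although they differed from each other more than the next groups did. The general seed coat exceeded the other 5 by 4.08 ± 0.60 (adjusted p = 8.60e-05), and the cellularized endosperm did so by 2.26 ± 0.60 (adjusted p = 0.0130). The cellularized endosperm call ended without either cellularized endosperm array, at 2.27 (adjusted p = 0.115) and 2.24 (adjusted p = 0.111).

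The embryo proper was lower for GSTU26 by -2.87 ± 0.60 (adjusted p = 0.00138), the chalazal endosperm by -2.62 ± 0.60 (adjusted p = 0.00183) and the micropylar endosperm by -1.81 ± 0.60 (adjusted p = 0.0398). The embryo call ended without embryo replicate 1, whose signal was 3.22 (-1.77, adjusted p = 0.11), and the micropylar call under 8 of 24 alternatives, 6 of which left out a single array: either micropylar or either cellularized array, embryo replicate 2, or general seed coat replicate 1. In the order of levels, the step from the chalazal seed coat over the micropylar endosperm passed the test (2.31 ± 0.77, adjusted p = 0.0303), which set 3 compartments with the gene well measured apart from 3 in which it was near the low end. The general seed coat and the cellularized endosperm did not differ beyond their spread (1.52 ± 0.77, 95% interval -0.10 to 3.14).

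Counted by compartment, a call being an adjusted p below 0.05 with at least a 2-fold change, the embryo proper was called for 6 of the 8 genes, 3 higher and 3 lower, where 15.1% of all tested probe sets were higher and 13.4% lower. The chalazal endosperm was also called for 6, 2 higher (background 15.8%), GSTU28 with its limit among them, and 4 lower (background 22.9%). In the cellularized endosperm 5 were called, 4 higher (background 8.18%) and 1 lower (background 8.35%), and in the general seed coat 4, of which 2 were higher (background 10.4%) and 2 lower (background 5.69%). The micropylar endosperm had 3, with 1 higher (background 11.2%) and 2 lower (background 6.80%). The chalazal seed coat had 3 lower (background 12.7%) and 0 higher (background 13.6%). These comparisons share their group means, so a very high level in 1 compartment lowers the change of the other compartments. The genes were also chosen with earlier results of these data known, so the counts describe these 8 alone. Median changes of the 8 genes lay between -1.46 in the chalazal endosperm and 0.54 in the cellularized endosperm, against medians over all tested probe sets of -0.12 and -0.08.

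**Figure D3:**
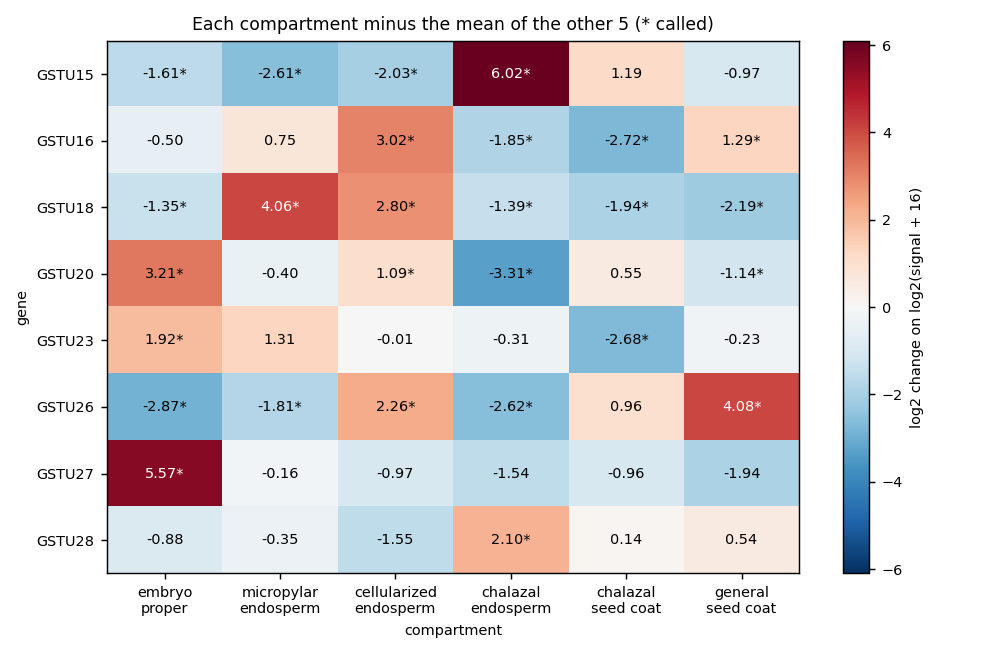
Log2 change of each gene in each compartment against the mean of the other 5, on log2(signal + 16), with an asterisk for an adjusted p below 0.05 and at least a 2-fold change. The 6.02 of GSTU15 in the chalazal endosperm and the 5.57 of GSTU27 in the embryo proper are the highest values, and each gene has its own pattern of high and low compartments.

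The embryo count rested on few arrays: 2 genes were called without embryo replicate 1 and 3 without embryo replicate 2. For the cellularized endosperm it was 3 without replicate 1 and 2 without replicate 2 of that compartment, and 3 without the chalazal endosperm arrays. The general seed coat count was 2 without its replicate 2.

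Compared in pairs, the compartments differed by a call in 59 of 120 gene-by-pair tests, against 25.3% of the tests over all probe sets. The 8 genes were chosen with earlier results of these data known, so this is no independent comparison. GSTU20 was called in 11 of its 15 pairs, GSTU16 and GSTU26 in 10 each, GSTU15 and GSTU18 in 8 each, GSTU23 and GSTU27 in 5 each, and GSTU28 in 2. The 5 pairs of GSTU27 were those that hold the embryo proper. Both pairs of GSTU28, counted in the 59, hold the chalazal endosperm, whose arrays decided that it was tested. The cellularized and chalazal endosperm, both parts of the endosperm, differed for 6 of the 8 genes, where 32.1% of all tested probe sets did. GSTU28, with that limit, is among the 6. Micropylar and cellularized endosperm differed for GSTU16 and GSTU26, where the background was 6.57%.

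The chalazal pole was examined within the endosperm and within the seed coat. In the endosperm, the chalazal part exceeded the cellularized part for GSTU15 by 6.71 ± 0.64 (adjusted p = 3.16e-07). For GSTU28 the value was 3.04 ± 0.86, with the same limit, since its chalazal endosperm arrays decided that it was tested. It was lower for GSTU16 (-4.06 ± 0.52), GSTU18 (-3.49 ± 0.58), GSTU20 (-3.67 ± 0.44) and GSTU26 (-4.07 ± 0.77), each with an adjusted p of 0.000503 or less. In the seed coat, the chalazal part was higher than the general part for GSTU20 (1.41 ± 0.44, adjusted p = 0.0394) and lower for GSTU16 (-3.34 ± 0.52, adjusted p = 0.000267) and GSTU26 (-2.60 ± 0.77, adjusted p = 0.0291), where 14.6% of all tested probe sets were called. Against the cellularized and the general part, GSTU16 and GSTU26 thus gave values of the same sign at both chalazal sites. GSTU20 was lower in the chalazal endosperm and higher in the chalazal seed coat. Against the micropylar endosperm, the chalazal endosperm was also higher for GSTU15 (7.19 ± 0.64). It was lower for GSTU16 (-2.17 ± 0.52), GSTU18 (-4.54 ± 0.58) and GSTU20 (-2.43 ± 0.44), each adjusted p being 0.00300 or less. GSTU26 (-0.68 ± 0.77, adjusted p = 0.525) and GSTU28 (2.04 ± 0.86, adjusted p = 0.073) were not called in that comparison. GSTU26 averaged 70.9 in the micropylar endosperm.

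The chalazal change in the endosperm, against the cellularized part, was also tested against that in the seed coat. This test, added after the values had been seen, called 3 of the 8 genes, against 17.6% of all tested probe sets. For GSTU15 the endosperm change exceeded the seed coat change by 4.91 ± 0.90 (adjusted p = 0.00111). For GSTU20 the difference was -5.09 ± 0.63 (adjusted p = 3.38e-05), and for GSTU18 it was -3.70 ± 0.82 (adjusted p = 0.00454). GSTU16 had a difference of -0.71, with a 95% interval of -2.26 to 0.83, and GSTU26 one of -1.47, with an interval of -3.76 to 0.82. Of the 3 control 3'/5' signal ratios, which rise with RNA degradation or short cDNA, that of GAPDH was highest in the chalazal endosperm, at 13.65 and 8.34, against 2.72 to 7.87 on the other arrays. The actin ratio was 14.79 and 9.01 there, against 9.69 to 36.81 elsewhere, and the ubiquitin ratio 8.63 and 8.72, against 5.36 to 12.02, so neither set the chalazal endosperm apart. Their part in these values was not tested.

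**Figure D4:**
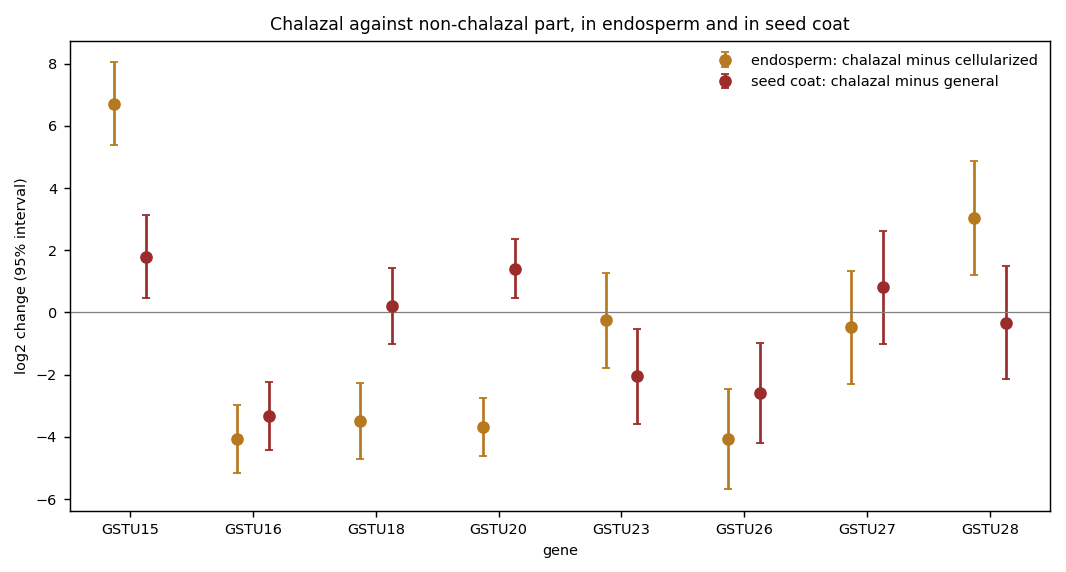
Log2 change of the chalazal part against the non-chalazal part, with 95% intervals, within the endosperm (chalazal minus cellularized) and within the seed coat (chalazal minus general). GSTU16 and GSTU26 lie below 0 in both tissues, whereas GSTU20 lies at -3.67 in the endosperm and at 1.41 in the seed coat.

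In whole seeds, compared with the 6 compartments averaged, 1 of the 8 genes was called, where 9.74% of all tested probe sets were. GSTU20 averaged 4239.8 ± 896 in whole seeds (SD, n = 2), against compartment means of 77.6 to 4046, a log2 change of 2.73 ± 0.34 (adjusted p = 6.62e-05). Its whole-seed level overlapped that of the embryo proper alone, although whole seeds also hold the compartments in which it was lower. The reason was not tested. The median change over all tested probe sets was itself 0.22 in whole seeds. GSTU15 and GSTU27, the genes most restricted to 1 compartment, gave whole-seed means of 161 ± 26.4 and 321 ± 23.1 (SD, n = 2), against 7511 ± 712 in the chalazal endosperm for GSTU15 and 2779 ± 133 in the embryo proper for GSTU27.

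Genomic neighbours were set side by side. In the RefSeq gene table, GSTU20 and GSTU23 lie in the cluster GSTU19 to GSTU23 with 2 protein-coding genes between them, and their correlation over the 14 arrays was 0.38. The median over all 28 pairs of the 8 genes was -0.100. Both peaked in the embryo proper, but GSTU20 was lowest in the chalazal endosperm and GSTU23 in the chalazal seed coat. The 2 members that lay between them, GSTU21 and GSTU22, ran from 1.16 to 53.9 and from 5.34 to 166, and GSTU25, next to GSTU26, from 3.02 to 83.8; all 3 stayed below the filter for testing. GSTU15 and GSTU16, with 3 protein-coding genes between them, had the lowest correlation of all 28 pairs, -0.64. Probe sets of close relatives can take up each other's transcripts, and with no probe sequences at hand this was not tested.

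Of the 28 pairs of genes, 15 had a correlation below 0 and 4 one above 0.5. These describe 14 arrays that fall into 7 groups and share their scaling, so no p is given. The 4 highest were GSTU20 with GSTU27 (0.69), GSTU15 with GSTU28 (0.65), GSTU16 with GSTU18 (0.58) and GSTU23 with GSTU27 (0.58). In 3 of the 4 the partners peaked in the same compartment, and GSTU16 and GSTU18 peaked in adjoining parts of the endosperm. Peak and correlation come from the same values, so neither backs the other. GSTU28 was among the tested genes only through its chalazal endosperm arrays.

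**Figure D5:**
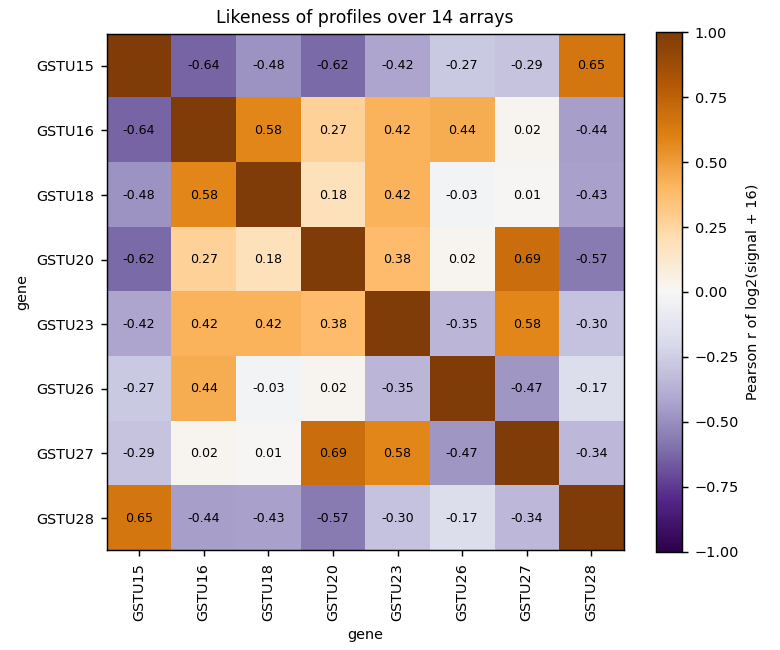
Pearson correlation of log2(signal + 16) over the 14 arrays for each pair of the 8 genes. Most pairs lie near or below 0, from -0.64 for GSTU15 with GSTU16 to 0.69 for GSTU20 with GSTU27.

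The named genes whose profiles were most like each member were sought among 1204 of the 15951 tested probe sets, by the same correlation over 14 arrays. Each of the 1204 names 1 gene by a symbol other than its locus code, and likeness to the rest was not examined. For GSTU15 the most similar were UBC31, a ubiquitin-conjugating enzyme gene (0.967), and RR23, a response regulator (0.949). Both were already listed as chalazal endosperm markers. GSTU27 was most like BZIP61, a bZIP transcription factor gene (0.953), and the ribosomal protein gene PGY1 (0.875). A correlation does not weigh the size of a change: PGY1 averaged 14457 in the embryo proper and 5146 to 6909.9 in the other compartments. GSTU20 was most like the expansin gene EXPB3 (0.912) and IQD22 (0.858), and GSTU23 like LIL3:2, which acts in chlorophyll synthesis (0.909), and the expansin gene EXPB1 (0.861).

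GSTU18 was most like the subtilisin-type protease gene SBTI1.1 (0.903) and the receptor kinase gene EMS1 (0.897). For GSTU16 they were the tubulin gene TUB9 (0.918) and SAH7 (0.912), and for GSTU26 the invertase-family gene cwINV6 (0.908) and the subtilase gene SBT5.4 (0.868). GSTU28 had the weakest likeness, to GLX2-1 of the glyoxalase II family (0.790) and to the purple acid phosphatase gene PAP20 (0.789).

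Other genes of the glutathione pathway could be followed only sparsely, because the platform's gene table gives few of them a probe set of their own. That table names no gene for 8794 of the 22810 probe sets, controls included. A gene missing here is therefore not shown to be absent from the array. Of 36 names for glutathione synthesis, reduction and breakdown, 3 had one and all 3 were tested. GR1, a glutathione reductase, averaged 1393 ± 316 in the chalazal endosperm, against 295 to 839 in the other compartments (SD, n = 2), and was called higher there by 1.49 ± 0.35 (adjusted p = 0.00255). It was lower in the cellularized endosperm by -1.13 ± 0.35 (adjusted p = 0.0344). ATMDAR2, a monodehydroascorbate reductase, averaged 2909 ± 855 in the general seed coat and 253 to 895 in the other compartments, with changes of 2.16 ± 0.37 there (adjusted p = 0.000456) and -1.94 ± 0.37 in the cellularized endosperm (adjusted p = 0.00131). The other probe set, GR, a second glutathione reductase, was called in 0 of the 6 compartments.

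Among transferases of other classes, 3 of 29 names had a probe set and 1 was tested. GSTL3, a lambda-class enzyme, averaged 2983 ± 261 in the chalazal seed coat (SD, n = 2), against 539 to 1469.8 in the other compartments. It was higher there by 1.72 ± 0.32 (adjusted p = 0.000561) and lower in the embryo proper (-1.26 ± 0.32, adjusted p = 0.00624) and the cellularized endosperm (-1.18 ± 0.32, adjusted p = 0.0157). The list of glutathione-conjugate and thiol transporters had no gene with such a probe set.

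Of 29 names of detoxification partners, genes often induced beside tau-class transferases, 6 had a probe set and 4 were tested. UGT73B1, a glucosyltransferase, averaged 6382 ± 214 in the general seed coat, against 57.1 to 899 in the other compartments, and was higher there by 5.46 ± 0.56 (adjusted p = 1.64e-06). It was also called higher in the chalazal seed coat (1.94 ± 0.56, adjusted p = 0.0145) and lower in the embryo proper, the cellularized endosperm and the chalazal endosperm. AER, an alkenal reductase, averaged 3689.6 ± 41.9 in micropylar and 3384 ± 1014 in cellularized endosperm, against 43.4 to 1418 in the remaining 4 compartments. It was called higher in both of those and in the general seed coat, and lower in the embryo proper (-4.49 ± 0.36, adjusted p = 8.34e-08) and the chalazal seed coat. ALDH7B4, an aldehyde dehydrogenase, was higher in the cellularized endosperm (1.29 ± 0.23, adjusted p = 0.000613) and lower in the chalazal seed coat (-1.20 ± 0.23, adjusted p = 0.000577), and the glutaredoxin gene GRX480 was called in 0 of the 6.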

How the data were processed

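The deposited values are signal intensities per probe set on a linear scale, 1 colour. The submitters' processing notes name GCOS with no version. The authors scaled the arrays: the mean without the lowest and highest 2% of probe sets was 500 on each. The genome build is not given in the sources used here, so no positions are printed.

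From there, without the 64 controls, 15951 of 22746 probe sets entered the tests, those at or above the array median on at least 2 arrays; all 8 genes passed. GSTU28 did so with 3 arrays and GSTU23 with 4. limma 3.58.1 in R 4.3.3 was fitted on log2(signal + 16) with 1 mean per group over 14 arrays (7 residual degrees of freedom, moderated variances with a trend). Changes are on that scale, which understates those of weak genes. P-values are two-sided and Benjamini-Hochberg adjusted over all tested probe sets within a comparison; a call also needs a 2-fold change. The test was tried on simulated data. The number of arrays limits the precision.

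Members, gene lists and markers were chosen with earlier results of these data known. Text names the 8 genes, at most 2 called genes per list and compartment, and for each member the 2 most similar named genes. Replicate numbers did not pair the samples: of 21 pairs of groups, 1 had same-numbered arrays deviating together at a correlation over 0.1 (range -0.111 to 0.146). Gene symbols came from the platform's table and loci from RefSeq.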

Additional observations from a re-analysis of the deposited data

Results flagged for a closer look

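For 3 genes, a test of the difference itself, added after the data were seen, found the chalazal change in the endosperm to differ from the chalazal change in the seed coat. The endosperm change was taken against the cellularized part alone. GSTU15 gave 4.91 ± 0.90 on the log2 scale (SE, limma adjusted p = 0.00111), with a change of 6.71 in the endosperm and of 1.80 in the seed coat. GSTU18 gave -3.70 ± 0.82 (adjusted p = 0.00454), from -3.49 in the endosperm and 0.21 in the seed coat. GSTU20 gave -5.09 ± 0.63 (adjusted p = 3.38e-05), from -3.67 in the endosperm and 1.41 in the seed coat. All 3 calls stood under each of the 24 alternative settings run for them.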

How the results depend on the processing

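Of 28 calls for the 8 genes, whole seeds included, 12 stood under every alternative run, 16 ended under at least 1, and 0 changed sign. Of 195 recomputed counts of called genes, 186 stayed within 1.5 times the reported count. The count for the cellularized endosperm, 5 as reported, was 3 without the chalazal endosperm arrays, and that for the general seed coat, 4 as reported, was 2 with no variance trend. With each array left out in turn, the counts ranged from 2 to 6 for the embryo proper, 2 to 5 for the cellularized endosperm, 2 to 5 for the general seed coat and 1 to 2 for whole seeds, where the count of 2 came without replicate 1 of the chalazal endosperm or without replicate 1 of the general seed coat. The 15 pairs gave 51 to 58 calls, against 59 with all arrays. When single arrays were left out, the counts for the chalazal and the micropylar endosperm also changed, unlike that for the chalazal seed coat. With the replicate block, the pairs gave 57, the chalazal endosperm 7 and the general seed coat 5. The added gene was GSTU27 in both compartments (-1.54, adjusted p = 0.0368, and -1.94, adjusted p = 0.0237). No call for a compartment was lost.

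Scaling to equal medians moved the median of all tested probe sets by 0.26 in the cellularized endosperm, 0.23 in the chalazal endosperm, -0.22 in the general seed coat and -0.39 in whole seeds. Among all calls, the share of higher ones became 65.1% with equal medians, against 49.5% as reported, in the cellularized endosperm, 50.8% against 40.7% in the chalazal endosperm, 47.8% against 64.5% in the general seed coat, and 32.2% against 71.3% in whole seeds. For the 6 compartments and whole seeds, counts over all probe sets moved by more than 1.5 times only when an array of the group itself was left out. They became 2312 and 2480 in the embryo proper, against 4537 as reported, 1125 and 1410 in the micropylar endosperm, against 2878, and 1302 and 1396 in the cellularized endosperm, against 2637. Without replicate 2 they were 2738 in the chalazal seed coat, against 4182, and 1311 in the general seed coat, against 2560, and whole seeds had 752 and 435, against 1553. Each group has 2 arrays, and signals near 16 or below are set mostly by the added 16.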
